A study of Arabidopsis thaliana with 4 samples.

Results

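Intronless genes are the 2675 of 27444 nuclear protein-coding genes of *Arabidopsis thaliana* that are 1 to 3 kb long and have a single exon in every annotated mRNA (TAIR10 assembly). They were compared with 4973 controls, genes of the same length range with at least 5 exons in every mRNA. The choice used the annotation only and no read counts. RNA Pol II was measured by ChIP-seq in leaves of 21-day-old plants grown in long days. The genotypes were the wild type (WT, Columbia-0) and *hyl1-2*, a knock-out mutant of *HYL1*. The product of *HYL1* is a double-stranded RNA-binding partner of DCL1 in miRNA processing. For each genotype there was 1 input library (chromatin before immunoprecipitation) and 1 ChIP library made with an antibody against total RNA Pol II. How many plants went into a library is not given in the sources used here. With 1 library per group no test between genotypes was possible, so every interval below covers counting error or the spread among genes and not plants.

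Most plant genes are interrupted by introns, which are removed from the transcript while RNA Pol II is still on the gene. The splicing machinery, 5′ splice sites and the polymerase influence each other, and introns near the 5′ end often raise expression in plants. Genes without introns are transcribed, capped and polyadenylated without a splicing step. In Arabidopsis they include large families such as the pentatricopeptide repeat (PPR) proteins, which process organelle RNA, and the F-box proteins, which choose targets for ubiquitin ligases. They also include many fast-responding regulators of hormone and stress responses.

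The annotated starts of 4 intronless genes show what the promoter window reads, since these had the largest and the smallest *hyl1-2* against WT difference in that window among the genes named here. The 100 bases upstream of each start are given 5′ to 3′ on the gene's strand, from the RefSeq TAIR10.1 assembly, whose nuclear chromosomes are those of TAIR10. Capitals mark TATAAA, the core of the TATA box, searched on both strands.
MYBR1: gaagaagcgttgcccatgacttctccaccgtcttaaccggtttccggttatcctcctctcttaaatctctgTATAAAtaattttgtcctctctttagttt
STZ: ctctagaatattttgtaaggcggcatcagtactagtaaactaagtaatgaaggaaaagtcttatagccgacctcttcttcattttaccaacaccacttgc
AT4G33930: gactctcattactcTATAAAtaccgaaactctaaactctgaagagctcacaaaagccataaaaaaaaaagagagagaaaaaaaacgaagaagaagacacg
AT2G22060: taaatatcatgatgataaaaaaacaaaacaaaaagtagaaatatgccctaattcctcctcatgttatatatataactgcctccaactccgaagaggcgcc
*MYBR1* (AT5G67300, also known as MYB44), a MYB transcription factor of stress responses, has its window at chr5:26853922-26854021 on the plus strand. *STZ* (AT1G27730, also known as ZAT10), a zinc finger repressor induced by salt and drought, has it at chr1:9649324-9649423 on the minus strand. The window of AT4G33930, annotated as a cupredoxin, lies at chr4:16265421-16265520 on the minus strand, and that of AT2G22060, annotated as a kelch repeat protein, at chr2:9380892-9380991 on the plus strand. The letters TATAAA stood in 1 promoter of each pair, so their presence did not separate the high pair from the low pair.

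Over the whole 200 bp promoter, *MYBR1* had 52 reads in each input, 57 in the WT ChIP and 327 in the *hyl1-2* ChIP, a fold change of 9.16 (95% interval 5.69 to 14.7). The *STZ* promoter had 64 reads in the WT input, 51 in the *hyl1-2* input, 41 in the WT ChIP and 147 in the *hyl1-2* ChIP, a fold change of 7.18 (4.33 to 11.9). Here and below, a ratio is ChIP over input with reads scaled to each library's total (RPM), and a fold change is that ratio in *hyl1-2* divided by that in WT. The WT ChIP lay below its input in both promoters, with ratios of 0.515 in *MYBR1* and 0.301 in *STZ*, and the *hyl1-2* ChIP above it, with 4.72 and 2.16. The promoter of AT4G33930 had 37, 55, 88 and 57 reads in the same order and a fold change of 0.696 (0.408 to 1.19). That of AT2G22060 had 54, 65, 65 and 39 reads and a fold change of 0.796 (0.465 to 1.36), so neither of the low promoters was outside its counting interval.

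The 4 libraries held 17734005 to 37717174 reads, and the intronless genes had a median of 240 and 313 reads over the gene in the WT and *hyl1-2* inputs and of 603 and 498 in the ChIP libraries. The *HYL1* gene itself, which has introns, carried 411 and 490 reads in the WT and *hyl1-2* inputs and 1037 and 2473 in the ChIP libraries, a fold change of 3.19 (2.75 to 3.71). RNA Pol II over a gene does not show whether its protein is made, so this value does not check the genotype labels. Leaf identity was read from 79 photosystem and chlorophyll binding genes, whose median ratio was 0.923 in WT (log2 −0.12) and 1.46 in *hyl1-2*. In WT these leaf genes therefore did not stand above the median protein-coding gene (ratio 1.04), whereas in *hyl1-2* they did (1.02). A weaker immunoprecipitation in the WT library and a difference between the genotypes cannot be told apart with 1 library each, and this bears on every WT ratio and every fold change below. Defensin-like genes, 112 of 113 counted, had ratios of 0.687 in WT and 0.714 in *hyl1-2*. DNA far from any gene gave a second reading of the libraries. In 51800 windows of 200 bp at least 1000 bp from a gene, the median log2 ratio climbed with GC content, from −0.87 at 30 to 32% GC to 0.59 at 40 to 42% and 1.18 at 48 to 50% in WT. In *hyl1-2* it went from −0.75 to 0.12 and 0.53 over the same bins, so the log2 fold change of intergenic DNA was 0.08, −0.41 and −0.60. The part of this GC dependence in each result below was not tested unless a value is given. A change in the share of cells that use a gene and a change in occupancy per cell cannot be told apart in such libraries.

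Of the 2675 intronless genes, 2560 (95.7%) had at least 10 reads in every window and library and are the ones counted below, beside 4818 controls and 26275 of all protein-coding genes. The windows were the 200 bp promoter, the first 200 bp, the whole gene and the 500 bp downstream of the annotated 3′ end. The remaining 115 members were short of reads mostly in the promoter (101 genes) and in the WT ChIP library (113 genes), and only 23 were short in the *hyl1-2* ChIP. A gene that failed was thus nearly always one with few WT ChIP reads, which removes genes with a high fold change more often than genes with a low one. All 2675 had at least 50 reads over the gene in each library.

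Intronless genes differed from the controls in build as well as in splicing. Their median length was 1530 bp against 2345 bp in controls, and their GC content 41.5% against 38.1%. The sequence downstream was poorer in GC than in controls (33.4 against 36.0%). Another gene reached into the downstream window of 53.2% of intronless genes and of 68.0% of controls, and 34.6% against 19.7% had no neighbour within 500 bp at all.

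The ChIP over input ratio was low upstream of intronless genes, higher inside them than controls reached within 1000 bp of the start, and lower again past the 3′ end. In WT the median log2 ratio was −0.94 in the promoter, −0.23 in the first 200 bp, 0.22 over the whole gene and −0.44 downstream. In *hyl1-2* it was −0.45, −0.02, 0.19 and −0.08. Controls had −0.99, −0.51, −0.03 and −0.19 in WT, and −0.46, −0.19, −0.01 and 0.07 in *hyl1-2*. Median GC content was 31% in intronless promoters and 33.4% downstream. Intergenic windows of 30 to 32% GC had −0.87 in WT and −0.75 in *hyl1-2*, and those of 32 to 34% had −0.45 and −0.49. In WT these values are near those of the promoter and downstream windows, and the part of GC content in the shape was not tested. The profile along the gene, a ratio of mean coverage in bins of 50 bp, was lowest 150 to 200 bp upstream of the start in WT (0.467) and peaked 550 to 600 bp inside intronless genes (1.44). In *hyl1-2* the lowest bin lay 250 to 300 bp upstream (0.669) and the highest 650 to 700 bp inside the gene (1.59). The highest bins of controls within 1000 bp of the start reached 1.05 and 1.07. Aligned at the 3′ end, the highest bins were closer, at 1.5 in WT and 1.65 in *hyl1-2* in intronless genes against 1.24 and 1.25 in controls.

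**Figure D1:**
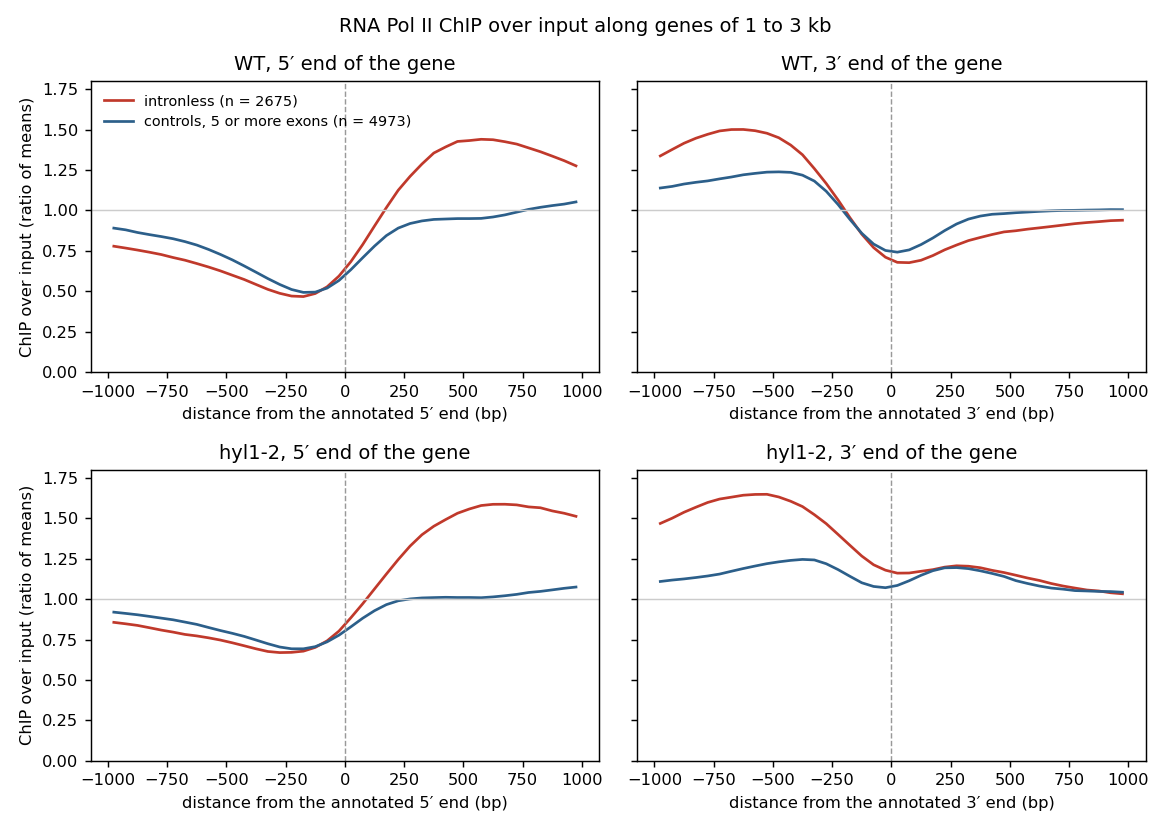
ChIP over input (ratio of mean coverage in RPM, corrected for the longer ChIP reads, bins of 50 bp) against distance from the annotated 5′ end (left) and 3′ end (right), in WT (top) and hyl1-2 (bottom), with 1 library pair per genotype; red, 2675 intronless genes, blue, 4973 controls with 5 or more exons. In the left panels intronless genes reach 1.44 in WT and 1.59 in hyl1-2, in the right panels 1.5 and 1.65, and past the 3′ end the WT ratio drops to 0.677 in the bin 50 to 100 bp past it.

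The whole-gene ratio was higher in intronless genes than in controls, by 0.25 on the log2 scale in WT (95% interval 0.22 to 0.28) and by 0.20 in *hyl1-2* (0.18 to 0.22). A ratio above 1.2 was found in 1209 intronless genes in WT (47.2%) and in 1045 in *hyl1-2* (40.8%). Among all protein-coding genes these shares were 32.3% and 24.1%, and among controls 23.4% and 18.0%. The level was highest in genes with 1 exon and nearly flat from 5 exons on. In WT the median log2 ratio was 0.22 with 1 exon, 0.07 with 2, 0.04 with 3 to 4 and −0.02 with 5 to 6 exons. With 7 to 9 exons it was −0.02 and with 10 or more −0.01. In *hyl1-2* the 6 classes had 0.19, 0.09, 0.04, 0.01, −0.02 and −0.03. GC content ran along the first 4 classes, with medians of 41.5, 39.7, 38.7 and 38.3%, and its part in the steps was not tested apart from the comparison at equal GC.

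Within bins of equal GC content the difference between intronless genes and controls was small. Over the 6 bins from 34 to 46% GC that held at least 20 genes of each kind, intronless genes were higher in 2 in WT, with differences of −0.31 to 0.11, and in 5 in *hyl1-2*, with differences of −0.06 to 0.07. Centred by GC content, the difference was 0.026 in WT and 0.027 in *hyl1-2*. At 40 to 42% GC, 797 intronless genes had a median log2 ratio of 0.25 in WT and 0.17 in *hyl1-2*. Controls of that GC had 0.15 and 0.13, and intergenic windows 0.59 and 0.12. In WT the median of intronless genes lay below that of intergenic windows in every bin from 34 to 50% GC, although the windows are shorter than genes. In *hyl1-2* it lay above in the bins from 34 to 42% and below from 44 to 50%, by little at 44 to 46% (0.29 against 0.33). Counts were not corrected for the longer ChIP reads, which raise the ratio more in short windows, so small gaps cannot be read. By gene length, intronless genes were higher than controls in 7 of 8 bins in WT and in 8 of 8 in *hyl1-2*. Within the controls themselves, exons were above introns by 0.03 in WT and 0.05 in *hyl1-2* (medians over 4972 genes).

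**Figure D2:**
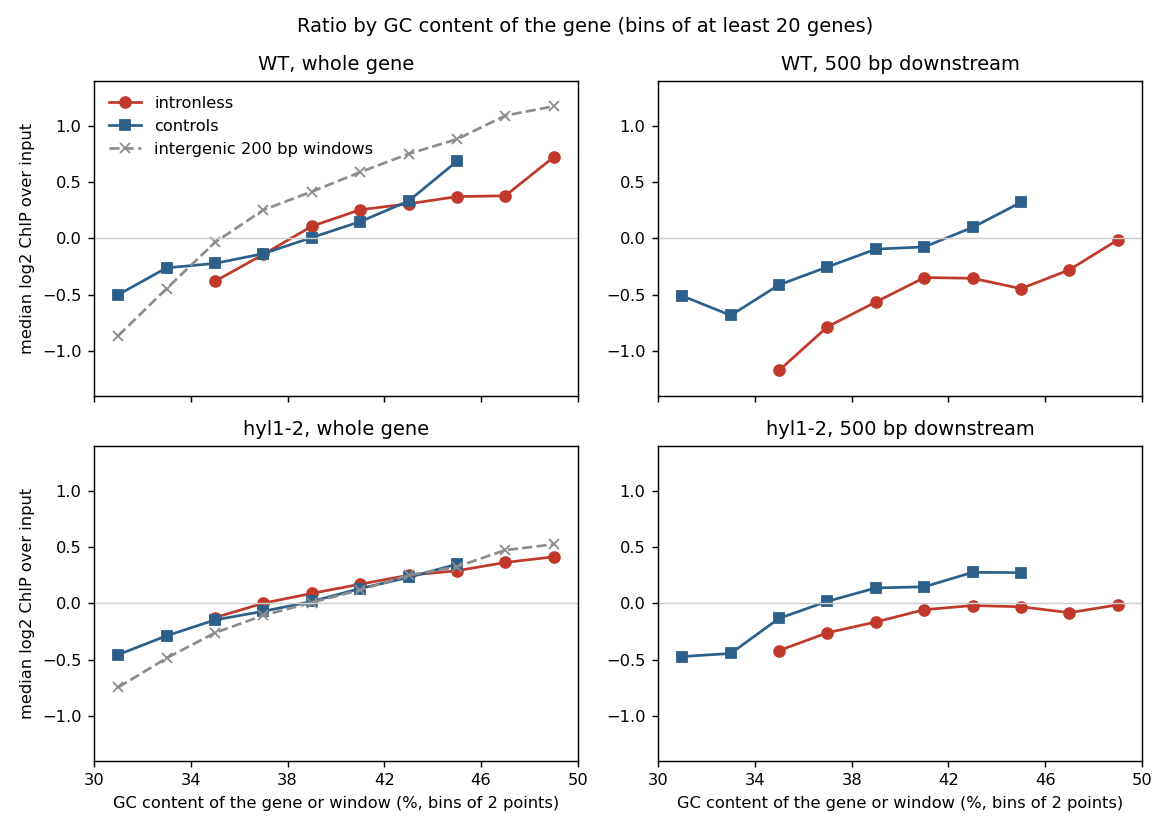
Median log2 ChIP over input against GC content in bins of 2 percentage points, for the whole gene (left) and the 500 bp downstream (right), in WT (top) and hyl1-2 (bottom); red circles, intronless genes, blue squares, controls, grey crosses, intergenic windows. Over the whole gene the red and blue lines run close together except from 44 to 46% GC in WT, where red is lower by 0.31, and in the downstream window red lies under blue in all 6 bins with both kinds.

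Past the 3′ end intronless genes carried less RNA Pol II relative to the gene than controls did. Relative to its own gene, the 500 bp downstream carried a log2 ratio of −0.62 (−0.66 to −0.59) in WT and −0.29 (−0.33 to −0.27) in *hyl1-2*. In controls the drop was −0.20 in WT, and in *hyl1-2* there was none (0.04). Set against controls directly, the downstream window of intronless genes was lower by 0.25 (interval of the difference −0.31 to −0.19) in WT and by 0.15 (−0.19 to −0.11) in *hyl1-2*. It was lower in 6 of 6 bins of gene GC content in both genotypes. Centred on the GC content of the downstream window itself, which is lower in intronless genes, the difference was −0.039 in WT and 0.0059 in *hyl1-2*. Among genes with no neighbour within 500 bp it was −0.18 in WT and −0.0015 in *hyl1-2*. Genes were also put in 10 bins of RNA Pol II level, the summed WT and *hyl1-2* ChIP RPM per base of the whole gene. A difference within bins is given as the median of the bin differences, weighted by the number of intronless genes. Downstream, within bins of level, it was −0.39 in WT and −0.25 in *hyl1-2*, below 0 in 10 of 10 bins in WT and in *hyl1-2*.

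Between genotypes, the medians of intronless genes and controls were close before genes were matched, and the sign of their difference changed with the matching. The median log2 fold change of intronless genes was 0.45 in the promoter, 0.19 in the first 200 bp, −0.05 over the whole gene and 0.35 downstream. The medians of all protein-coding genes were 0.42, 0.21, −0.07 and 0.26. Intronless minus control, the difference was −0.01 in the promoter (−0.06 to 0.03), −0.10 in the first 200 bp (−0.14 to −0.06), −0.03 over the gene (−0.06 to 0.00025) and 0.08 downstream (0.03 to 0.12). Within bins of gene length or RNA Pol II level, a difference is the weighted median described above, which is the value of a single bin. The promoter difference was 0.21 within bins of gene length, 0.11 within bins of RNA Pol II level and 0.13 among genes without neighbours. The whole-gene difference was 0.045, 0.025 and 0.068 in the same settings and 0.030 centred by GC content. The difference in the first 200 bp turned to 0.13 within bins of gene length and to 0.05 within bins of RNA Pol II level. The downstream difference was 0.28 within length bins and 0.17 within level bins, and it was above 0 in 6 of 6 GC bins, 8 of 8 length bins and 10 of 10 level bins. It turned to −0.014 when at least 50 reads were required in every window. Without weights, the medians over the 8 length bins were 0.09 in the promoter, 0.02 in the first 200 bp, −0.02 over the gene and 0.14 downstream. Over the gene, intronless genes were higher in 4 of 8 length bins.

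By count, 1527 intronless promoters (59.6%) were above 1.2-fold and 267 (10.4%) below 0.8-fold, near the 58.6% and 11.7% of all protein-coding promoters. In the first 200 bp 1179 genes (46.1%) were above and 558 (21.8%) below, against 47.3% and 19.3% of all genes. In the downstream window 1389 (54.3%) were above and 278 (10.9%) below, against 49.8% and 12.5%. A change of 1.2-fold lies inside counting error for a typical promoter, whose interval spans 1.67-fold to either side, and near its edge for a whole intronless gene, where the interval spans 1.23-fold.

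The whole-gene fold change was spread more widely among intronless genes than among controls, in both directions. Above 1.2-fold were 828 intronless genes (32.3%, Wilson interval 30.6 to 34.2%) and below 0.8-fold 660 (25.8%, 24.1 to 27.5%). All protein-coding genes had 25.2% and 21.9%, and controls 24.6% and 16.0%. The interval lay wholly above 1 in 783 intronless genes (30.6%, against 24.5% of all genes) and wholly below 1 in 750 (29.3%, against 28.4%). The middle 80% of intronless genes covered a log2 width of 1.69, from −0.49 to 1.19, and that of controls 1.05, from −0.39 to 0.66. Most of the extra width lay on the upper side. Intronless genes had the wider range in 8 of 8 length bins, the larger share above 1.2 in 7 and the larger share below 0.8 in 7. Centred by GC content the widths were 1.68 and 1.05. The share of intronless genes below 0.8 was then 21.1%, beside 17.3% of controls and 21.3% of all protein-coding genes. The shares above 1.2 were 34.6, 23.9 and 25.2% in the same order. The median counting interval was nearly the same, 1.23-fold in intronless genes and 1.19-fold in controls. The balance of the 2 directions depends on the scale of the libraries and on the read minimum. With at least 50 reads in every window, 16.1% of intronless genes were above and 32.4% below. With each library scaled on its median intergenic window, all fold changes were lower by 0.15 on the log2 scale, and 26.3% of intronless genes were above and 40.8% below, so that 39.2% of the genes past a threshold were above it in place of 55.6%.

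**Figure D3:**
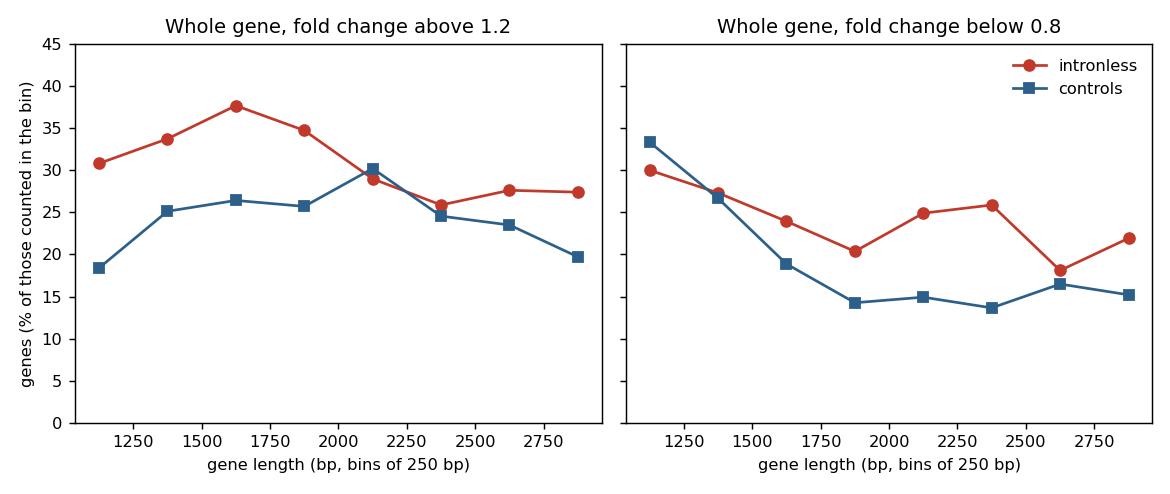
Share of genes with a whole-gene fold change above 1.2 (left) and below 0.8 (right), in % of the genes counted in each bin of 250 bp of gene length; red circles, intronless genes, blue squares, controls. Intronless genes lie higher in 7 of 8 bins on each side, except from 2000 to 2250 bp on the left and from 1000 to 1250 bp on the right.

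Genes that carried more RNA Pol II over the gene in *hyl1-2* mostly did so around it too. Of the 828 intronless genes above 1.2-fold, 740 (89.4%) were also above 1.2 in the promoter and 762 (92.0%) downstream, beside 58.6% and 49.8% of all protein-coding genes. Of the 660 below 0.8-fold, 163 (24.7%) were above 1.2 in the promoter and 177 (26.8%) below 0.8, and controls below 0.8-fold had 26.9% and 30.7%. Reads that cross a window's edge are counted in both neighbours, so the windows are not independent. Controls above 1.2-fold had 86.8% of their promoters and 86.7% of their downstream windows above it.

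The 6 highest whole-gene fold changes of intronless genes were between 7.73 and 10.1. *EXL3* (AT5G51550), an EXORDIUM-like gene of a family tied to brassinosteroid-promoted growth, had 246 reads over the gene in the WT input, 303 in the *hyl1-2* input, 234 in the WT ChIP and 1826 in the *hyl1-2* ChIP. Its ratio was 0.447 in WT and 4.52 in *hyl1-2*, a fold change of 10.1 (8.15 to 12.6). *EXO* (AT4G08950), the founding member of that family, had 216, 258, 342 and 2024 reads in the same order, ratios of 0.744 and 5.89 and a fold change of 7.91 (6.39 to 9.80). In both genes the WT ChIP was below its input and the *hyl1-2* ChIP far above. A further member, *PHI-1* (AT1G35140), had ratios of 2.33 and 8.25, among the 4 highest intronless genes in *hyl1-2*.

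*RALFL22* and *RALFL33* encode rapid alkalinization factors, secreted peptides that act through receptor kinases at the cell wall. *RALFL22* had 267, 375, 229 and 1654 reads and a fold change of 8.21 (6.66 to 10.1). *RALFL33* had 171, 196, 191 and 1060 reads and a fold change of 7.73 (5.98 to 9.99). *AIF1*, an atypical basic helix-loop-helix protein that dampens brassinosteroid responses, had 200, 214, 156 and 878 reads and a fold change of 8.40 (6.49 to 10.9). AT3G15630, a protein of no named function, had 196, 212, 170 and 1112 reads and a fold change of 9.65 (7.50 to 12.4). All 6 genes had a WT ratio under 1, between 0.367 and 0.744. Their promoters were 4.31-fold to 5.55-fold higher in *hyl1-2* and their downstream windows 5.26-fold to 25.3-fold.

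The 6 lowest fold changes lay within a narrow range of 0.536 to 0.570 and belonged to genes of unlike function. AT4G33930, the cupredoxin whose promoter is printed above, had 151 and 251 input reads in WT and *hyl1-2* and 695 and 388 ChIP reads, ratios of 2.16 and 1.16 and a fold change of 0.536 (0.423 to 0.679). Of its reads, 23.4% had more than 1 place in the genome. Without them, and with library totals that leave such reads out, the fold change was 0.528. The change of totals alone lowered every fold change, and *EXL3*, with 0% of such reads, went from 10.1 to 9.83. The others were AT2G38510, a MATE transporter (0.548), *AGL86*, a MADS-box gene (0.553), AT4G29570, a cytidine deaminase (0.558), the sulfotransferase *ST4B* (0.566) and AT2G22060 (0.570). Their intervals reached no higher than 0.718. The WT ratio of the 6 genes was 1.57 to 2.41 and their GC content 39.5 to 48.8%. At 44 to 46% GC the median log2 fold change was −0.53 in intergenic windows and −0.05 in intronless genes. At 48 to 50% GC these values were −0.60 and −0.34. The part of base composition in the 6 lowest fold changes was not tested.

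The 4 highest RNA Pol II levels in WT included regulators of hormone and defence responses. *ERF4*, a repressor of the ethylene response factor class, led with a ratio of 5.69 in WT and 9.36 in *hyl1-2* (151 and 200 input reads, 1826 and 2495 ChIP reads). The mitochondrial dicarboxylate carrier *DIC2* followed with 5.57 and 6.91, *HSPRO2*, a gene of basal resistance, with 5.05 and 8.12, and AT4G32020 with 4.87 and 7.92. Their whole-gene fold changes were modest, from 1.24 (1.01 to 1.52) in *DIC2* to 1.65 (1.32 to 2.05) in *ERF4*. Their promoters differed more, from 2.84-fold in *DIC2* to 6.98-fold (4.28 to 11.4) in *HSPRO2*. In *hyl1-2* the order was led by AT1G32920, an uncharacterized protein, with 164 and 166 input reads and 1150 and 2242 ChIP reads. Its ratio was 3.30 in WT and 10.1 in *hyl1-2*. *MYBR1* had whole-gene ratios of 3.42 and 8.43, a fold change of 2.47 (2.10 to 2.90) that was much smaller than the 9.16 of its promoter.

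Among 34 known regulators and enzymes listed for this comparison, 28 met the rule and 26 were counted. The remaining 6 were over 3 kb (*MYC2*, *RPM1*, *RPS2*) or had more than 1 exon in some or all mRNAs (*SCL3*, *TCP4*, *MKK5*). Over the whole gene 22 of the 26 were above 1.2-fold and 1 was below 0.8-fold, and in the promoter 21 were above and 0 below. Of all protein-coding genes 25.2% and 21.9% were above and below over the gene, and 58.6% and 11.7% in the promoter. The median log2 fold changes were 1.13 and 1.28, beside −0.05 and 0.45 for all intronless genes. The list was drawn up from well-studied genes with earlier results of these libraries known, so its direction is a description only.

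The genes of the DELLA proteins, GRAS regulators that hold back gibberellin responses, mostly had a higher RNA Pol II ratio in *hyl1-2*. *RGA1* had 292 and 363 input reads and 511 and 1382 ChIP reads in WT and *hyl1-2*, with a fold change of 3.47 (2.89 to 4.18). *GAI* had 318 and 431 input reads and 484 and 1490 ChIP reads, with a fold change of 3.63 (3.04 to 4.33). *RGL3* was at 2.76 (2.32 to 3.29), and *RGL1*, too thin in the promoter to be counted, at 3.36 (2.77 to 4.07) over the gene. *RGL2* had 301 and 465 input reads and 471 and 427 ChIP reads, and its fold change of 0.937 (0.770 to 1.14) was within counting error. The promoter of *GAI* had 39 and 67 input reads and 11 and 13 ChIP reads, and the interval of its fold change ran from 0.449 to 2.69, while the 500 bp downstream of *GAI* was 15.2-fold and that of *RGA1* 9.14-fold higher. *SHR*, a GRAS regulator of root patterning, was the 1 listed gene below 0.8, at 0.693 (0.575 to 0.835). The GRAS genes that miR171 targets, *HAM1*, *HAM2* and *HAM3*, were at 2.02 (1.71 to 2.38), 1.35 (1.13 to 1.61) and 1.23 (1.03 to 1.48).

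Abscisic acid genes were higher in *hyl1-2* to unlike degrees. *PYL5*, an abscisic acid receptor, had 240 and 309 input reads and 255 and 1549 ChIP reads, ratios of 0.50 and 3.76 and a fold change of 7.53 (6.08 to 9.33). *PYL4* was at 4.29 (3.41 to 5.40) and *PYL6* at 1.37 (1.09 to 1.73). *NCED3*, the drought-induced enzyme of abscisic acid synthesis, had 367 and 512 input reads, 979 and 1906 ChIP reads and a fold change of 2.23 (1.91 to 2.60). All 4 were above 1.2, beside 25.2% of all protein-coding genes, though *PYL6* stayed below its input in both genotypes (0.596 and 0.818).

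Transcription factors of stress and jasmonate responses included some of the highest levels. *RAV1* had 276 and 337 input reads and 1307 and 3217 ChIP reads, with a fold change of 3.22 (2.71 to 3.82). *TEM1*, a repressor of flowering, had 248, 323, 694 and 2507 reads in the order used above and a fold change of 4.43 (3.68 to 5.33). *STZ* was at 1.69 (1.38 to 2.07) over the gene, with ratios of 4.47 and 7.55. *ERF6* and *ERF104* were at 2.14 (1.71 to 2.66) and 3.42 (2.76 to 4.25). *MYC4*, a jasmonate factor, was at 1.04 (0.870 to 1.24), and its relative *MYC3*, not counted for a thin promoter, was at 3.17 (2.69 to 3.74). In the promoter all 6 counted factors of this list were above 1.2, beside 58.6% of all protein-coding genes. The *RAV1* promoter was at 5.62 (3.18 to 9.96).

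The 4 immunity genes were all above 1.2 over the gene and in the promoter, beside 25.2% and 58.6% of all protein-coding genes. The MAP kinase kinases *MKK9* and *MKK4* were at 2.88 (2.36 to 3.53) and 1.97 (1.64 to 2.37) over the gene. The U-box ubiquitin ligases *PUB22* and *PUB23*, which limit immune responses, were at 2.29 (1.92 to 2.72) and 1.72 (1.44 to 2.05), and their promoters at 3.20 and 4.38. *KCS1*, a fatty acid elongase of wax synthesis, had 269 and 408 input reads and 480 and 2405 ChIP reads, with a fold change of 5.27 (4.39 to 6.33).

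Of the 3 neighbouring light-harvesting genes on chromosome 1, 1 stood apart. *CAB1* had 169 and 249 input reads and 483 and 1786 ChIP reads, with a fold change of 4.01 (3.22 to 4.99). *CAB2* was at 1.29 (1.04 to 1.62) and *CAB3* at 0.849 (0.677 to 1.07). These genes are near-identical copies, and 40.7 to 46.9% of their reads could not be placed at 1 position, so that single values are uncertain. Without those reads, and with the reduced library totals, *CAB1* was at 4.34 (3.22 to 5.85), *CAB2* at 1.25 (0.941 to 1.66) and *CAB3* at 0.727 (0.536 to 0.987).

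**Figure D4:**
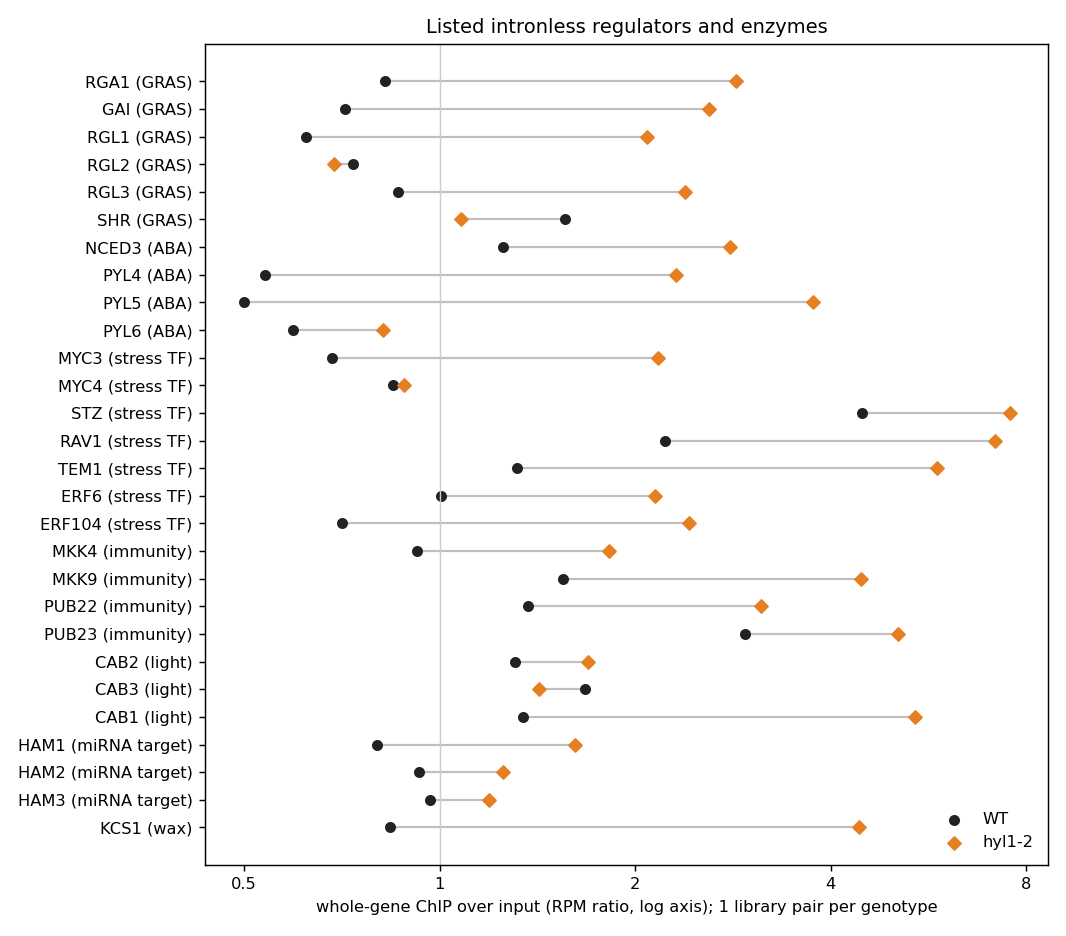
Whole-gene ChIP over input (RPM ratio, log axis) of the 28 listed intronless genes in WT (black circles) and hyl1-2 (orange diamonds), 1 library pair per genotype, with the gene's list in brackets. The hyl1-2 value lies to the right of WT except in RGL2, SHR and CAB3, and PYL5 shows the longest step, from 0.50 to 3.76.

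Families of intronless genes, grouped by product name, separated in level and in fold change. The Cysteine/Histidine-rich C1 domain family, a large plant family with few members of known role, had the highest WT level among families of at least 9 counted genes, a median log2 ratio of 0.61 (0.58 to 0.66) over 92 genes. In *hyl1-2* the level was 0.27 and the fold change −0.36 (−0.42 to −0.32), with 53 genes (57.6%) below 0.8 and 2 (2.17%) above 1.2, where all protein-coding genes had 21.9% and 25.2% and all intronless genes 25.8% and 32.3%. The 200 F-box genes had 0.44 in WT, 0.16 in *hyl1-2* and a fold change of −0.25 (−0.29 to −0.23), with 76 below and 15 above. Intergenic windows of 40 to 42% GC, the range of both families (medians 40.8 and 40.2%), had 0.59, 0.12 and −0.41. All intronless genes of that GC content had 0.25, 0.17 and −0.12. How far base composition sets the values of these families was not tested. Reads with more than 1 place made up 6.47% and 7.26% in these 2 families. Without them, and with library totals that leave such reads out, the fold changes were −0.40 and −0.29. The reduced totals alone lower every fold change, as in *EXL3* (10.1 to 9.83), so these steps do not show the part of the removed reads.

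Of the 231 counted PPR genes, few passed either threshold over the gene. Their median fold change over the gene was −0.13 (−0.16 to −0.09), with 26 (11.3%) above 1.2 and 31 (13.4%) below 0.8. All protein-coding genes had 25.2% and 21.9%. PPR genes were long for intronless genes (median 2105 bp), and intronless genes of 2000 to 2250 bp had 29.0% above and 24.9% below. Their promoters stood at 0.59 (0.46 to 0.71), with 160 (69.3%) above 1.2 and 9 (3.90%) below, beside 58.6% and 11.7% of all promoters. Downstream of PPR genes the fold change was 0.12 (0.06 to 0.18), beside 0.35 for all intronless genes. AT-hook genes, which encode proteins that bind AT-rich DNA, were lower over the gene (−0.36, −0.55 to −0.13, 14 genes). Of these, 8 were below (57.1%, against 21.9% of all genes) and 0 above (against 25.2%). The 36 cytochrome P450 genes were lower too (−0.27, −0.36 to −0.05).

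Families of regulators differed among themselves. The 56 AP2 and ERF transcription factor genes had a median log2 ratio of 0.02 in WT and 0.32 in *hyl1-2*. Their fold change was 0.51 (0.23 to 0.96). Of them 33 were above 1.2 (58.9%, against 25.2% of all genes) and 12 below 0.8 (21.4%, near the 21.9% of all genes). Their promoters were at 0.98 (0.39 to 1.25) and their downstream windows at 1.09 (0.67 to 1.47). The 76 RING and U-box ubiquitin ligases had 0.30 (0.10 to 0.57) over the gene and 0.90 (0.56 to 1.15) in the promoter. Zinc finger genes were at −0.16 (−0.25 to −0.00022, 61 genes) and basic helix-loop-helix genes at 0.05 (−0.45 to 1.99, 7 genes). The 17 alpha/beta-hydrolases had 0.44 (0.11 to 0.77), and in 15 GRAS genes the value of 0.43 had an interval across 0 (−0.21 to 0.95). Of 9 chlorophyll binding genes 8 (88.9%) were above 1.2 and 0 below 0.8, against 25.2% and 21.9% of all genes. The median of these 9 genes was 0.87 (0.37 to 2.00), with 25.7% of their reads at more than 1 place. The median GC content of AP2 and ERF genes (40.9%), PPR genes (41.2%) and C1 domain genes (40.8%) was nearly the same. The part of base composition in the family fold changes was not tested. The 1442 intronless genes of other products stood at 0.04 (−0.00 to 0.07), with 546 above (37.9%) and 339 below (23.5%). All protein-coding genes had 25.2% and 21.9%. Families followed product names, so *RGL1*, *RGL2* and *RGL3* were not in the GRAS family and *AIF1* was not among the basic helix-loop-helix genes.

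**Figure D5:**
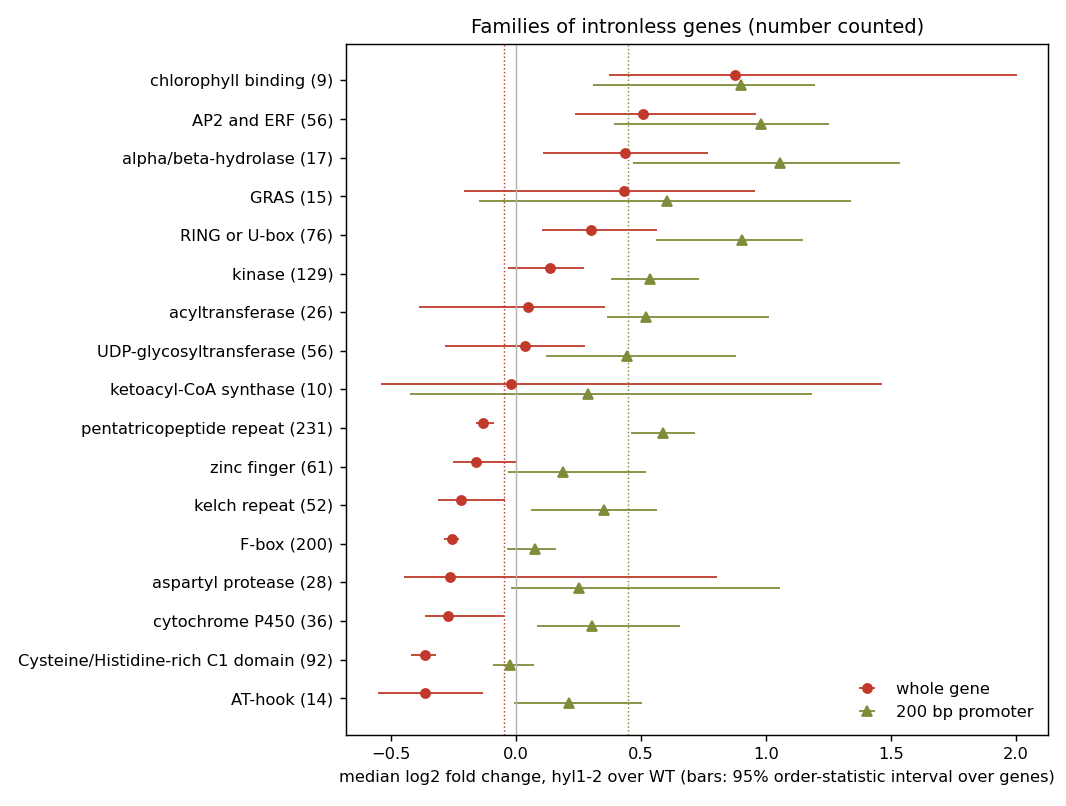
Median log2 fold change, hyl1-2 over WT, of families of at least 9 counted intronless genes, over the whole gene (red circles) and in the 200 bp promoter (green triangles), with 95% order-statistic intervals over genes; dotted lines mark the medians of all intronless genes, −0.05 and 0.45. Chlorophyll binding and AP2 and ERF genes lie at the top, and C1 domain and AT-hook genes at the bottom with whole-gene medians of −0.36.

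Short motifs of the 200 bp upstream were searched on both strands in all 2675 intronless genes. The TATA core TATAAA was found in 42.2% of them, 39.6% of controls and 41.0% of all protein-coding genes. GGCCCA, a site of TCP factors, was rarer in intronless genes than in controls (9.57 against 17.0%, all genes 12.6%). AAACCCTA, the telo box found before many genes of the translation machinery, was in 4.79% against 3.40% (all genes 3.72%). The G-box CACGTG was in 5.05% against 6.58%, and the GCC box GCCGCC in 1.57% against 1.65%. A match describes the letters only and not a bound site.

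Of the 128 intronless promoters with a telo box, 49 belonged to F-box genes, which is 23.7% of the 207 F-box members. The 126 counted intronless genes with the box had a median log2 ratio over the gene of 0.47 in WT and 0.18 in *hyl1-2*, a fold change of −0.28 (−0.33 to −0.21). Genes without it had −0.03. In the promoter the fold change was 0.11 with the box and 0.47 without it. Over all protein-coding genes the whole-gene values were −0.18 with the box and −0.07 without it. Intronless promoters with GGCCCA or with the G-box lay on the other side, each with a promoter fold change of 0.63, beside 0.42 and 0.44 without these letters. Other genes had the same pattern. Controls had 0.69 and 0.73 with these letters and 0.41 and 0.44 without them. All protein-coding genes had 0.66 and 0.68 with them and 0.37 and 0.40 without them. F-box genes with the box stood at −0.33 (−0.43 to −0.27) and F-box genes without it at −0.23 (−0.27 to −0.14). Among intronless genes of other families the values were −0.21 (−0.31 to −0.10) with the box and −0.02 without it.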

How the data were processed

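RNA Pol II occupancy was analysed from 1 input and 1 ChIP library each of WT and *hyl1-2* leaves. Before deposit, sequences were shortened and mapped by the authors to TAIR10 using Bowtie (−M1 −n2), duplicates were taken out using SAMtools, and each read was lengthened towards the fragment size. Tool versions are not given in the sources used here. The deposited files list positions of lengthened reads together with a score, which is Bowtie's mapping quality. Input reads span 175 bp and ChIP reads 200 bp, always lengthened towards higher coordinates, which blurs window edges. Window counts were not corrected for this span, while the profiles along genes were.

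A read counted for each window that it touched. Counting used Python 3.11.15, NumPy 2.4.6, pandas 2.3.3 and SciPy 1.17.1, and Matplotlib 3.10.9 drew the figures. Values are scaled to the library's total (RPM), and genes needed 10 reads in every window and library. Fold changes above 1.2 and below 0.8 were counted. The 95% interval of a fold change comes from its 4 read counts, that of a share is Wilson's and that of a median comes from order statistics over genes. The first covers counting error only, and reads lack molecular identifiers and may stem from the same molecule. The others cover the number and spread of genes, which are not replicates. In simulated data (26275 genes, 3-fold changes) 100% of raised and 99.0% of lowered whole genes passed, with 3.92% of unchanged genes above and 1.97% below. Of unchanged promoters 24.3% were above 1.2 and 20.7% below 0.8. The simulated counts were drawn for all counted protein-coding genes, not the shorter intronless ones, around rates pooled over the genotypes. They held counting error only, with no GC dependence, duplicates or variation among plants. These shares therefore do not give the rate among real unchanged genes.

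Named genes were, among intronless genes with 50 reads over the gene in each library, the 6 highest and 6 lowest fold changes and the 4 highest ratios per genotype, together with the listed genes. Sequences are shown for the 2 highest and 2 lowest promoter fold changes among named genes with 20 promoter reads in each library. The members, lists and families were chosen with earlier results of these data known, and some family patterns were added after product names were read. Intergenic windows by GC content, the spread after GC centring, and values of families and named genes without reads of mapping quality 0 were added after the data were seen. Reads over a gene and its antisense neighbour cannot be told apart.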

Additional observations from a re-analysis of the deposited data

How the results depend on the processing

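With 1 library per group none could be left out, and no interval covers plants. Over 18 alternatives, 139 of 202 values stayed within the interval or within 1.5 times the share, 55 moved outside them, some across 0, and 8 changed sign where the interval of the reported value did not hold 0. No paired analysis was possible because each group has 1 library. All values here are intronless minus control on the log2 scale unless they are shares. Among genes with no neighbour within 500 bp, the fold change differed by 0.13 in the promoter, 0.097 in the first 200 bp (reversed from −0.10), 0.068 over the gene and 0.20 downstream, and the WT whole-gene ratio by 0.13. As weighted medians within bins of gene length these values were 0.21, 0.13 (reversed), 0.045, 0.28 and 0.22. Without weights the whole-gene fold change differed by −0.021 over the length bins. Within bins of RNA Pol II level the same values were 0.11, 0.048 (reversed), 0.025, 0.17 and 0.025, with 0.033 for *hyl1-2*. The whole-gene ratios had to come close there, because genes were matched on the same whole-gene ChIP reads, so these values test nothing. The WT ratio of the first 200 bp, 0.28 as reported, turned to −0.021 and −0.015 in the length and level bins, and that of *hyl1-2*, 0.17, to −0.020 in the level bins. Centred by GC content, the whole-gene ratios differed by 0.026 in WT and 0.027 in *hyl1-2*, the whole-gene fold change by 0.030, and the *hyl1-2* downstream ratio turned to 0.0059. With a minimum of 50 reads in every window the whole-gene fold change differed by −0.075, the downstream fold change turned to −0.014, the *hyl1-2* whole-gene ratio differed by 0.15 and 16.1% of intronless genes were above 1.2. Counting read midpoints gave −0.069 over the gene and 0.023 downstream for the fold change, and 0.31 and 0.22 for the WT and *hyl1-2* whole-gene ratios. Against genes of 2 to 4 exons the fold change differed by 0.055 in the promoter and −0.0036 in the first 200 bp, and the ratios by 0.18 and 0.13. The share below 0.8 was 40.8% when scaled on the median intergenic window and 4.49% at the inverse of a 1.5-fold threshold. Where the construction of the alternative does not show it, the cause was not tested. The depth limits promoters most, where 1.2-fold lies inside the interval of a typical gene.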

Other observations

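The 6996 genes of 1 to 3 kb with 2 to 4 exons, of which 6725 were counted, lay between intronless genes and controls in several measures. Their median whole-gene log2 ratio was 0.04 in WT and 0.05 in *hyl1-2*, and their downstream ratio −0.32 and −0.03. The width that held the middle 80% of their fold changes was 1.34, beside 1.69 in intronless genes and 1.05 in controls, and 30.5% of them were above 1.2-fold and 21.7% below 0.8-fold. Within the intronless genes the shortest differed from the rest in the promoter, where the median log2 fold change was 0.27 at 1000 to 1250 bp (740 genes) and 0.44 to 0.60 in the 7 longer bins. The shortest controls were lowest in the promoter too, with −0.05 at 1000 to 1250 bp (87 genes) and 0.19 to 0.56 in the 7 longer bins. The lower promoter value of the shortest genes was therefore not particular to intronless genes.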
